A study of Homo sapiens with 6 samples.

Results

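The genes described here are 10 genes of the mitotic spindle and of cytokinesis, the last step of cell division: ANLN, ECT2, PRC1, RACGAP1, CIT, GAS2L3, ASPM, CEP55, HMMR and TOP2A. They were taken by symbol from 39020 genes listed in any of 6 libraries, and were chosen with earlier results of these data known. After irradiation all 10 had RNA-seq ratios below 1, between 0.839 for TOP2A and 0.392 for GAS2L3, from 1 library per condition. Their counting intervals lay wholly below 1, as did those of 22.0% of 12977 genes with enough RNA-seq counts. In iCLIP of the protein TIRR, 7 of the 10 had enough counts to be tested, and 4 of those fell: ASPM and GAS2L3 to 0.285 and 0.289 of the untreated level, RACGAP1 to 0.508 and CIT to 0.591. Of all 9230 tested genes 1.07% fell and 3.50% passed in either direction. Of the 4 calls, only that of GAS2L3 held with each library left out in turn. It ended with libraries thinned to equal depth (edgeR adjusted p = 0.269). ASPM and GAS2L3 met the count filter of the test only with the untreated libraries, where their counts were higher. DESeq2 called 0 of the 7. DESeq2 gave 3 of these, ASPM, GAS2L3 and TOP2A, no adjusted p, so it could call only the rest. ANLN, ECT2 and TOP2A did not pass the edgeR test, PRC1 and HMMR were too sparse to test, and CEP55 had no line in the iCLIP tables.

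Both assays were made on U2OS, a line from a human osteosarcoma. For iCLIP, irradiated TIRR_FLAG cells (5 Gy of X-rays, 4 h of recovery, 2 libraries) were set against untreated TIRR_FLAG cells (2 libraries). These cells carry a stable FLAG-tagged TIRR transgene, and RNA crosslinked to the tagged protein by ultraviolet light was pulled down through the tag. For RNA-seq, irradiated WT cells (5 Gy, 4 h of recovery, 1 library) were set against untreated WT cells (1 library). The sources used here do not give the promoter of the transgene, nor whether the line is 1 clone. Empty-vector cells, which the series' design text names, were not used here, so the iCLIP values carry no background subtraction. The labels give X-rays for both assays, whereas the series' design text has gamma rays for RNA-seq. No label says that the iCLIP replicates were separate cultures, so p-values cover only library spread, possibly technical.

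The libraries held 400723 and 664777 gene counts in irradiated iCLIP cells, against 781997 and 799709 in untreated ones. RNA-seq had 13023903 and 13015406 gene counts in irradiated and untreated cells. Osteoblast and mesenchymal markers were present in RNA-seq, with at least 100 untreated counts for 8 of 10, whereas 4 of 5 blood markers had 0 counts in untreated cells. COL1A2 and TWIST1 were nearly absent, with 2 and 1 counts in irradiated cells against 6 and 3 in untreated cells, although they are on the mesenchymal list. The epithelial keratins KRT8 and KRT18 were present as well, and the 3 neural markers had low levels, 36.7 summed counts per 1000000 gene counts in irradiated and 32.5 in untreated cells, against 10468 and 9353 for the mesenchymal list.

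As background, a dividing cell builds a spindle of microtubules whose poles are organised by proteins such as ASPM and HMMR. After the chromosomes separate, PRC1 bundles the overlapping microtubules of the central spindle. RACGAP1, a subunit of centralspindlin, brings the exchange factor ECT2 there, and ECT2 switches on the GTPase RhoA at the cell equator. RhoA drives the actomyosin ring, where ANLN links actin, myosin and septins, and the citron kinase CIT and CEP55 then act at the midbody, the bridge that is cut in abscission. TOP2A, a DNA topoisomerase, untangles and condenses the chromosomes. Most of these genes are transcribed mainly in G2 phase and mitosis.

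Their promoters are shown because all 10 genes had lower RNA-seq ratios and because many genes of this phase share 2 short elements. These are CCAAT boxes, bound by NF-Y, and the cell cycle genes homology region, which usually reads TTTGAA or TTTAAA and is bound by the DREAM and MuvB complexes. RefSeq promoter windows (GRCh38.p14, 250 bases before to 50 after the start) were found for 9 of the 10 genes. RACGAP1 is named only. The last 120 bases before the start are printed 5′ to 3′, with 3 motifs in capitals. The first is CCAAT, which reads ATTGG on the opposite strand. The second is TTTGAA, which on the opposite strand reads TTCAAA. The last is TTTAAA. GAS2L3 had none of them in this stretch.
ECT2 (chr3:172750606-172750725, plus strand): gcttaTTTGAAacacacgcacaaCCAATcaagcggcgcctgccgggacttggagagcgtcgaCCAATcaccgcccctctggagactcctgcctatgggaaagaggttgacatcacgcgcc
PRC1 (chr15:90994536-90994655, minus strand): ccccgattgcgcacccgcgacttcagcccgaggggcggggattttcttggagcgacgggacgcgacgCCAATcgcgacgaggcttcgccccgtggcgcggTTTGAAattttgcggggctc
ANLN (chr7:36389742-36389861, plus strand): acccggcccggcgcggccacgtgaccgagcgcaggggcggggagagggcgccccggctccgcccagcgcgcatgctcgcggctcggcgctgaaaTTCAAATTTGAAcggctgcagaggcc
GAS2L3 (chr12:100593498-100593617, plus strand): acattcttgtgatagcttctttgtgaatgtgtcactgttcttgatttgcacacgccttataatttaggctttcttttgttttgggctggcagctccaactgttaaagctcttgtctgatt
CIT (chr12:119877321-119877440, minus strand): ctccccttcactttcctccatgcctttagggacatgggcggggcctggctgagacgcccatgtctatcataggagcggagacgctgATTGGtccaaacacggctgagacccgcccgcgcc
CEP55 (chr10:93496492-93496611, plus strand): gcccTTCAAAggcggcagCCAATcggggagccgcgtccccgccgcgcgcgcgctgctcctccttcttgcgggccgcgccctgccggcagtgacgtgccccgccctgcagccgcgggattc
ASPM (chr1:197146670-197146789, minus strand): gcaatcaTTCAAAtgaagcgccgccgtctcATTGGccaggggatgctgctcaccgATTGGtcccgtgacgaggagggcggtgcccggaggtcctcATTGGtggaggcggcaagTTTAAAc
HMMR (chr5:163460512-163460631, plus strand): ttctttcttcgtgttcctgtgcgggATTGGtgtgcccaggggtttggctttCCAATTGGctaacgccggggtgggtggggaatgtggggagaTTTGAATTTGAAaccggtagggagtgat
TOP2A (chr17:40417897-40418016, minus strand): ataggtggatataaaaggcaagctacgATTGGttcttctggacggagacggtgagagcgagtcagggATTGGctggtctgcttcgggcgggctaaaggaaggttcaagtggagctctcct

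In the whole 300-base windows, TTTGAA on either strand was found for 8 of 9 genes, against 15.2% of all 35116 windows. CCAAT on either strand was found for 7 of 9, against 34.6% of all windows, and both motifs together for 7 of 9, against 5.90%. TTTAAA, which reads the same on both strands, was found for 2 of 9, against 12.2%. Counting from -1 as the base before the start, PRC1 had TTTGAA at -20 and a CCAAT box at -53. ANLN had TTCAAA at -26 directly followed by TTTGAA at -20, and no CCAAT box. HMMR had TTTGAA at -28 directly followed by another at -22, and its CCAAT at -69 overlaps ATTGG at -66. ASPM had TTTAAA at -7 and 4 ATTGG matches in its window. For CIT the TTCAAA matches lay outside the printed stretch, at -208 and 11 bases into the transcript, and for TOP2A both matches lay upstream of it, at -194 and -151. ECT2 has 2 windows, of which the one at the gene's outer start was used, and a further TTTGAA starts 35 bases into its transcript. A second TTCAAA of CEP55 starts at -3 and runs across the start. GAS2L3 had no TTTGAA or CCAAT, but its window starts 19934 bases inside the RefSeq gene, so the region before its outer start was not searched. These matches are descriptions of letters, not of bound sites.

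The first question was how much RNA of these genes the cells held after the dose, which RNA-seq addressed with 1 library per condition and therefore with no replicate check. Levels are CPM, counts per 1000000 gene counts with no further scaling, intervals are 95% counting intervals, and ratios are irradiated over untreated after TMM scaling. In bulk samples fewer cells in G2 phase and mitosis and less RNA per cell cannot be told apart.

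For the pair that turns on RhoA, ECT2 (ENSG00000114346, chromosome 3, 172750726 to 172829265) had 790 counts in irradiated and 1440 in untreated cells, a ratio of 0.542 (0.497 to 0.592). RACGAP1 (ENSG00000161800, chromosome 12, 49989162 to 50033440) had 1167 counts in irradiated and 2161 in untreated cells, a ratio of 0.534 (0.497 to 0.574). The intervals of these partners overlap. PRC1 (ENSG00000198901, chromosome 15, 90966040 to 90994535) had 887 counts in irradiated and 1503 in untreated cells, a ratio of 0.584 (0.536 to 0.634).

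PRC1 shares its locus with PRC1-AS1, an antisense RNA gene, and the tables list only 3199 bases for PRC1 in RNA-seq, against a RefSeq span of 28496 bases. PRC1-AS1 itself had 1187 counts in irradiated and 2158 in untreated cells, a ratio of 0.544 (0.506 to 0.584). The sources used here do not say whether the counting used strand, so reads of both genes cannot be told apart. Summed, they gave a ratio of 0.560 (0.531 to 0.591).

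Of the genes of the ring, ANLN (ENSG00000011426, chromosome 7, 36389862 to 36453791) had 3598 counts in irradiated and 4641 in untreated cells, a ratio of 0.767 (0.734 to 0.801). GAS2L3 (ENSG00000139354, chromosome 12, 100573684 to 100628288), which links actin to microtubules, had 157 counts in irradiated and 396 in untreated cells, a ratio of 0.392 (0.324 to 0.473). This was the lowest ratio of the 10, and its interval does not reach that of ANLN. The start of ANLN overlaps MATCAP2, which had 143 counts in irradiated and 208 in untreated cells, far fewer than ANLN itself.

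At the midbody, CIT (ENSG00000122966, chromosome 12, 119685791 to 119877320) had 938 counts in irradiated and 1354 in untreated cells, a ratio of 0.685 (0.630 to 0.745). CEP55 (ENSG00000138180, chromosome 10, 93496612 to 93529092), which brings the abscission machinery to the bridge, had 1393 counts in irradiated and 2802 in untreated cells, a ratio of 0.492 (0.461 to 0.524). Of these midbody genes CEP55 was the lower, with intervals that do not overlap.

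Of the spindle pole genes, ASPM (ENSG00000066279, chromosome 1, 197084127 to 197146669) had 536 counts in irradiated and 1226 in untreated cells, a ratio of 0.432 (0.390 to 0.479). HMMR (ENSG00000072571, chromosome 5, 163460632 to 163491941), which binds hyaluronan as well as spindle microtubules, had 521 counts in irradiated and 861 in untreated cells, a ratio of 0.598 (0.536 to 0.668). Its antisense neighbour HMMR-AS1 had 292 and 426 counts in irradiated and untreated cells, and the sum of both genes gave a ratio of 0.625 (0.571 to 0.683).

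TOP2A (ENSG00000131747, chromosome 17, 40388525 to 40417896) had the most counts of the 10, 7082 in irradiated and 8345 in untreated cells, and the ratio closest to 1, 0.839 (0.813 to 0.866). A size rule asked for 100 or more counts in at least 1 library, a change of 2-fold or more and an interval beyond 1.5-fold. GAS2L3, ASPM and CEP55 passed it downward, 3 of 10, where 0.624% of 12977 genes with enough counts did and 0.863% passed upward. Intervals wholly below 1 were found for all 10 members and for 22.0% of those genes. The median log2 ratio was -0.83 over the members and -0.00250 over all 12977 genes. Together the 10 genes took 1311 CPM (1291 to 1330) in irradiated and 1900.0 (1876 to 1924) in untreated cells. With a minimum of 500 counts GAS2L3 dropped out, leaving 2.

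**Figure D1:**
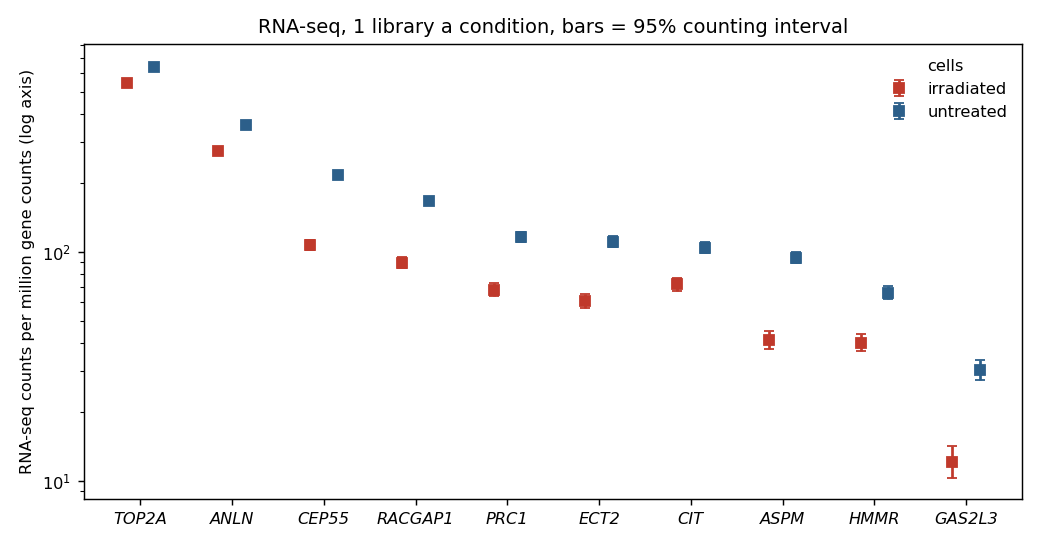
RNA-seq counts per 1000000 gene counts (log axis) of the 10 genes, irradiated cells left of untreated cells, 1 library each, bars giving exact 95% counting intervals. Every gene lies lower in the irradiated library, with the smallest gap for TOP2A (544 against 641) and the widest for GAS2L3 (12.1 against 30.4).

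Levels of different genes were compared mainly per kb of the length listed in the tables, which counts introns for most genes. PRC1 ranked highest, with 21.3 RNA-seq CPM per kb in irradiated and 36.1 in untreated cells, but over its short listed length. TOP2A followed with 18.6 and 21.9 in irradiated and untreated cells. CIT and GAS2L3 were the lowest, CIT with 0.376 and 0.543 and GAS2L3 with 0.227 and 0.572 in irradiated and untreated cells. The last 2 ranks were thus exchanged between the conditions, as were ranks 3 and 4, held by ANLN and CEP55 in irradiated cells. CIT was divided by 191454 listed bases. Undivided, its untreated RNA-seq level was 104 CPM, above ASPM (94.2), HMMR (66.2) and GAS2L3 (30.4) and below the rest. How far listed length sets the order per kb was not tested. Among iCLIP levels per kb, ANLN had 1.72 ± 0.271 CPM per kb in irradiated and 2.74 ± 0.169 in untreated cells (SD, n = 2 each). PRC1, on few counts and its short listed length, had 1.03 ± 0.781 in irradiated and 2.998 ± 0.802 in untreated cells. ANLN thus had the highest mean in irradiated cells and PRC1 in untreated cells. HMMR was lowest, with 0.0867 ± 0.0114 in irradiated and 0.120 ± 0.00189 in untreated cells.

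The next question was how much RNA of these genes came down with TIRR. The iCLIP test was edgeR's quasi-likelihood test with Benjamini-Hochberg adjustment over 9230 genes, and log2 fold changes are irradiated over untreated with TMM scaling. Levels are again CPM, mean ± SD with n = 2 libraries per group.

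ECT2 had 15 and 44 iCLIP counts in irradiated libraries 1 and 2, against 73 and 55 in untreated libraries 1 and 2. The level was 51.8 ± 20.3 in irradiated and 81.1 ± 17.4 in untreated cells (SD, n = 2 each). On the log2 scale the difference was -0.50 ± 0.27 (SE) and did not pass (edgeR adjusted p = 0.418). Irradiated library 2 nearly met untreated library 2, with 66.2 against 68.8 CPM, and with TMM scaling the groups overlapped.

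Its partner RACGAP1 had 14 and 35 counts in the irradiated libraries, against 74 and 75 in the untreated ones. The untreated pair was close and both irradiated libraries lay below it, at 43.8 ± 12.5 in irradiated and 94.2 ± 0.598 in untreated cells (SD, n = 2 each). The log2 fold change was -0.98 ± 0.25 (SE, edgeR adjusted p = 0.0319). The call ended without untreated library 1 (edgeR adjusted p = 0.0880), untreated library 2 (0.0814) or irradiated library 1 (0.106). The difference between the fold changes of ECT2 and RACGAP1 was not tested.

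PRC1 had 2 and 1 counts in the irradiated libraries, against 6 and 9 in the untreated ones, too few for the test. The ratio of the summed counts was 0.311 with a 95% counting interval of 0.0577 to 1.10. On the log2 scale this was -1.69, which moved to -2.60 without irradiated library 1 and to -0.85 without irradiated library 2. PRC1-AS1 had 3 and 2 counts in irradiated and 1 and 2 in untreated libraries.

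ANLN had 49 and 65 counts in the irradiated libraries, against 143 and 134 in the untreated ones. The groups did not overlap, with 110.03 ± 17.3 in irradiated and 175.2 ± 10.8 in untreated cells (SD, n = 2 each), but the log2 fold change of -0.63 ± 0.19 did not pass (SE, edgeR adjusted p = 0.0725). It passed when scaled by library totals (-0.70, edgeR adjusted p = 0.0463) and without irradiated library 1 (-0.78, 0.0139). With the other libraries left out in turn the adjusted p was higher, from 0.154 without untreated library 2 to 0.434 without irradiated library 2.

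GAS2L3 had 2 and 11 counts in the irradiated libraries, against 35 and 35 in the untreated ones. The level was 10.8 ± 8.17 in irradiated and 44.3 ± 0.701 in untreated cells (SD, n = 2 each), so the irradiated libraries differed several-fold from each other but both lay far below the untreated pair. The log2 fold change was -1.79 ± 0.42 (SE, edgeR adjusted p = 0.0212). It was -3.02 without irradiated library 2 (edgeR adjusted p = 0.00122), and the call held with each library left out in turn. It ended with libraries thinned to 1 depth (-1.55, edgeR adjusted p = 0.269). Of the 9230 tested genes, 17 had a lower log2 fold change.

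CIT, the longest of the 10 genes, had the most iCLIP counts summed over the libraries, though fewer than ANLN in irradiated library 1, with 42 and 82 in the irradiated libraries against 171 and 153 in the untreated ones. Both irradiated libraries lay below both untreated ones, with 114.1 ± 13.1 in irradiated and 205.0 ± 19.3 in untreated cells (SD, n = 2 each). The log2 fold change was -0.76 ± 0.18 (SE, edgeR adjusted p = 0.0205), and the call ended without untreated library 1 (-0.67, edgeR adjusted p = 0.202).

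CEP55 had no line in any of the 4 iCLIP tables, although it had 1393 and 2802 RNA-seq counts in irradiated and untreated cells. Of 3105 genes with at least 2000 RNA-seq counts in both libraries together, 654 (21.1%) had no iCLIP line, among them COL1A1 and FTL, which are far more abundant. The intergenic line spans 4469334271 bases in the iCLIP tables and 4291815975 in the RNA-seq tables, so the tables of the assays do not divide the genome alike. The missing line of CEP55 was therefore not read as a count of 0.

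ASPM had 6 and 7 counts in the irradiated libraries, against 30 and 42 in the untreated ones. The groups lay well apart, with 12.8 ± 3.14 in irradiated and 45.4 ± 10.01 in untreated cells (SD, n = 2 each). The log2 fold change was -1.81 ± 0.40 (SE, edgeR adjusted p = 0.0146), and 14 of the tested genes had a lower one. The call ended without untreated library 2 (-1.57, edgeR adjusted p = 0.0982) or irradiated library 2 (-1.51, 0.0831). HMMR had 1 and 2 counts in the irradiated libraries against 3 and 3 in the untreated ones, a ratio of summed counts of 0.777 (0.126 to 3.64), so no difference was detectable at this depth.

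TOP2A had 9 and 23 counts in the irradiated libraries, against 35 and 34 in the untreated ones. The level was 28.5 ± 8.58 in irradiated and 43.6 ± 1.59 in untreated cells (SD, n = 2 each). On the log2 scale this was -0.48 ± 0.32 (SE) and did not pass (edgeR adjusted p = 0.539). The groups did not overlap, but irradiated library 2 came near the untreated pair.

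**Figure D2:**
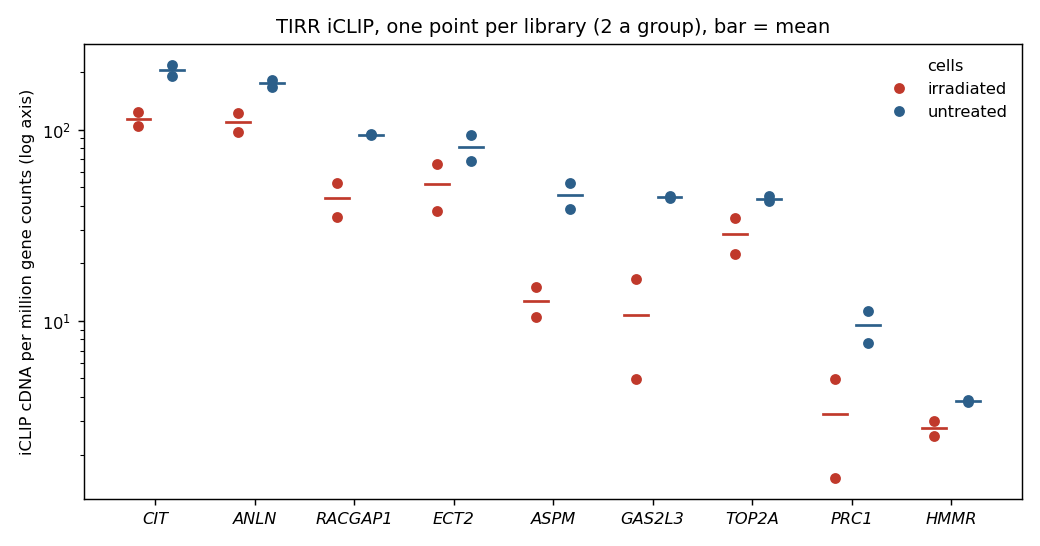
iCLIP cDNA counts per 1000000 gene counts (log axis) of the 9 genes with an iCLIP line, irradiated left of untreated, 1 point per library and a bar at the mean of 2. The untreated pairs of GAS2L3 and RACGAP1 nearly coincide, while the irradiated points of GAS2L3 (4.99 and 16.5) lie apart and the higher one of ECT2 (66.2) lies just under the lower untreated one (68.8).

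Of the 7 tested members 4 fell (57.1% of them), against 1.07% of all tested genes that passed downward, 2.43% that passed upward and 3.50% in either direction. The members were chosen with earlier results of these data known, so the shares and medians here are descriptions and not a test. With TMM scaling 99 of all tested genes fell and 224 rose, with library totals 132 and 184. With TMM scaling the irradiated libraries lay wholly below the untreated ones for 6 of the 7, where 22.0% of all tested genes showed this. Log2 fold changes were negative for all 7, and for 49.8% of all tested genes. The median was -0.76 over the 7 members and 0.00157 over all tested genes. The test needs enough counts, so these 7 are the better covered members and do not speak for PRC1, HMMR and CEP55. Its filter asks for enough counts in any 2 libraries. ASPM and GAS2L3 met it only with the untreated libraries, where their counts were higher. With DESeq2 in place of edgeR 0 of the 7 passed, with 5 at an unadjusted p under 0.05 and 3, ASPM, GAS2L3 and TOP2A, without an adjusted p. In edgeR, too, 5 of the 7 had an unadjusted p under 0.05, as did 1340 of all 9230 tested genes. The share of all genes under this limit in DESeq2 is not given here, so the 5 are not read as a result. Thinned to equal depth, CIT alone passed in edgeR (adjusted p = 0.0482), and without untreated library 1 or untreated library 2 there were 2 calls.

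The summed cDNA of the 9 genes with an iCLIP line made up 349 and 406 CPM in the irradiated libraries, against 729 and 675 in the untreated ones. The groups do not overlap, and the irradiated libraries, of which library 1 is the shallowest of the 4, differed from each other by about as much as the untreated ones.

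Setting the changes of both assays side by side, the RNA-seq log2 ratio lay inside the 95% interval of the iCLIP log2 fold change for each of the 7 tested genes. ASPM and GAS2L3 were lowest in both, at -1.81 and -1.79 in iCLIP and -1.21 and -1.35 in RNA-seq. TOP2A was highest in both, at -0.48 in iCLIP and -0.25 in RNA-seq. ECT2 had -0.50 (95% interval -1.07 to 0.07) in iCLIP and -0.88 in RNA-seq, and RACGAP1 had -0.98 (-1.50 to -0.46) and -0.91. For ANLN the values were -0.63 in iCLIP and -0.38 in RNA-seq, and for CIT -0.76 and -0.55. The intervals are wide, so they leave room for a difference between the assays, and the cells also differ (TIRR_FLAG against WT). No test of that difference was made, since RNA-seq has 1 library per condition.

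**Figure D3:**
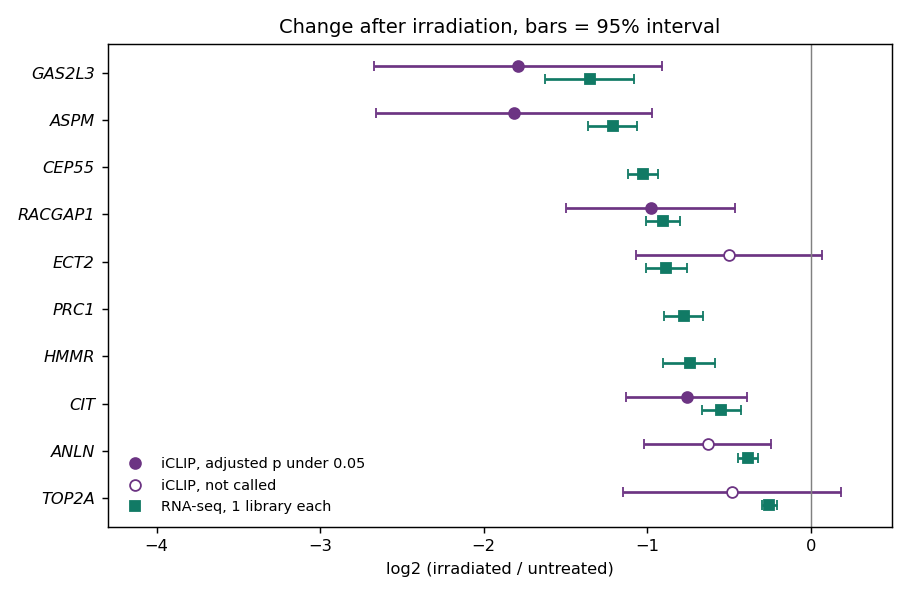
Log2 of irradiated over untreated for the 10 genes, purple circles for iCLIP (filled where the edgeR adjusted p was under 0.05, bars the 95% interval of the fit) and green squares for RNA-seq (bars the 95% counting interval). Every RNA-seq square of a tested gene lies within the iCLIP bar above it, and PRC1, HMMR and CEP55 have RNA-seq values only.

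How strongly each RNA appeared in iCLIP for its RNA-seq level was described as the iCLIP share over the RNA-seq share of gene counts, with a prior count of 0.5 (mean ± SD, n = 2 iCLIP libraries per group). CIT was highest, with 1.60 ± 0.177 in irradiated and 1.98 ± 0.186 in untreated cells. GAS2L3 came next, with 0.973 ± 0.647 in irradiated and 1.47 ± 0.0233 in untreated cells, and then ECT2, with 0.870 ± 0.329 and 0.738 ± 0.157 in irradiated and untreated cells. In irradiated cells GAS2L3 and ECT2 did not differ beyond their spread, and CIT lay above ECT2 by more than the SDs of both.

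In the middle RACGAP1 had 0.4997 ± 0.136 in irradiated and 0.571 ± 0.00366 in untreated cells. ANLN had 0.402 ± 0.0640 in irradiated and 0.493 ± 0.0304 in untreated cells. ASPM had 0.334 ± 0.0848 in irradiated and 0.489 ± 0.106 in untreated cells. In untreated cells ANLN and ASPM did not differ beyond their spread.

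The lowest ratios belonged to TOP2A, with 0.0543 ± 0.0151 in irradiated and 0.0690 ± 0.00249 in untreated cells, to PRC1, with 0.0623 ± 0.0413 and 0.0874 ± 0.0218, and to HMMR, with 0.0937 ± 0.000308 and 0.0669 ± 0.00106. The gap between TOP2A and CIT in untreated cells was thus far wider than the spread between libraries. For PRC1 and HMMR the ratio rests on few counts, and the small SDs of HMMR do not cover its counting error. Without the prior count HMMR had 0.0688 in irradiated and 0.0574 in untreated cells. Over 11385 genes with at least 50 untreated RNA-seq counts and an iCLIP line, the median ratio was 0.849 in irradiated and 0.875 in untreated cells. In untreated cells 70.6% of those genes had a lower ratio than CIT, and 6.79% a lower one than TOP2A.

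Listed length went with this ratio, with a Spearman correlation of 0.72 over the 9 genes and 0.64 over the 11385 genes in untreated cells, given as a description since the genes share libraries. CIT spans 191454 listed bases and TOP2A 29265, and the part of length in the ratio was not tested.

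**Figure D4:**
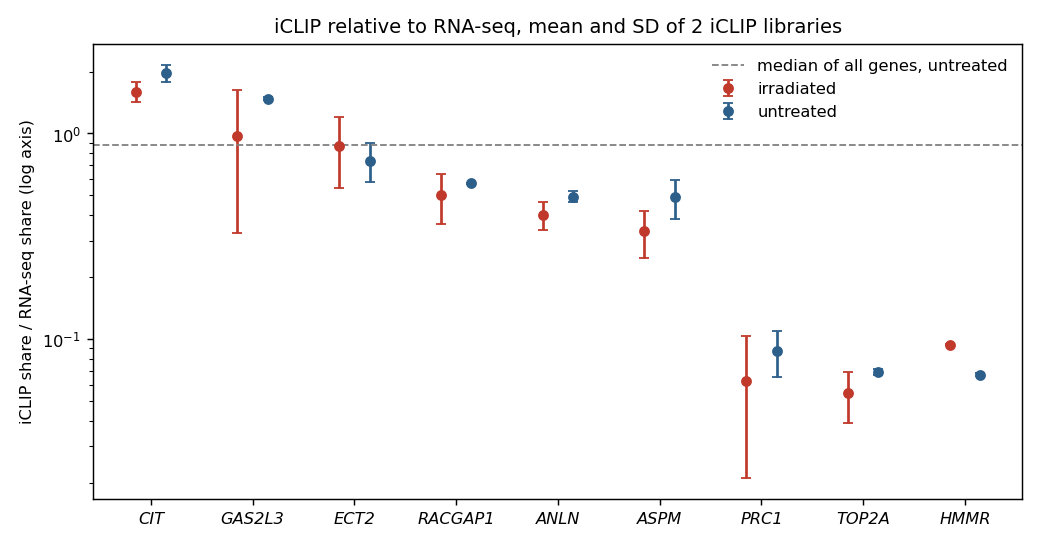
iCLIP share over RNA-seq share (log axis) of 9 genes, irradiated left of untreated, points the mean and bars the SD of 2 iCLIP libraries, dashed line the median of all genes in untreated cells (0.875). CIT and GAS2L3 lie above the line in untreated cells and the other 7 genes below it, with TOP2A, PRC1 and HMMR lowest.

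Wider lists of the same machinery were counted in the same fits. There too, genes with few irradiated counts, such as PSRC1 and CDCA8, met the filter only with the untreated libraries. The list counts stand against 1.07% of all 9230 tested genes that fell in iCLIP and 2.43% that rose. In RNA-seq 0.624% of 12977 genes passed the size rule downward and 0.863% upward. Of 44 tested genes of spindle assembly and poles, 6 fell in iCLIP (13.6%), 0 rose and 38 did not pass, with a median log2 fold change of -0.23. PSRC1, a spindle protein gene, had 0 and 2 counts in irradiated libraries against 17 and 14 in untreated ones, a ratio of summed counts of 0.100 (edgeR adjusted p = 0.0279). AURKA, the Aurora kinase of the poles, had 3 and 11 counts in irradiated against 47 and 48 in untreated libraries, or -2.12 on the log2 scale (edgeR adjusted p = 0.00168). BORA, its activator, had -2.18, KIF18B, a plus-end kinesin gene, -1.12, TPX2, a microtubule nucleator, -1.10 and the dynein regulator NDE1 -0.82 (edgeR adjusted p = 0.0260, 0.0146, 0.0240 and 0.0271). The members of this list with the most iCLIP counts did not pass, CEP192 with -0.25 and CLASP1 with 0.08 (edgeR adjusted p = 0.427 and 0.844). The value of AURKA was -2.90 and that of BORA -3.49 without irradiated library 2.

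In RNA-seq 11 of 70 genes of this list passed the size rule downward (15.7%) and 0 upward, with a median log2 ratio of -0.28. The kinase NEK2 was lowest, with 267 counts in irradiated and 868 in untreated cells, a ratio of 0.304 (0.264 to 0.349). AURKA had a ratio of 0.340, PSRC1 0.381 and the kinesin KIF18A, which had no iCLIP line, 0.433.

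Of 43 tested genes of cytokinesis and abscission, 4 fell in iCLIP (9.30%), 0 rose and 39 did not pass, with a median of -0.00473. CDCA8 (borealin), part of the chromosomal passenger complex, had 3 and 5 counts in irradiated against 38 and 31 in untreated libraries, or -2.44 on the log2 scale (edgeR adjusted p = 0.00252). The kinesins KIF14, a partner of citron kinase, and KIF4A, a partner of PRC1, had -1.46 and -0.90, and ARHGEF2 had -0.56 (edgeR adjusted p = 0.0138, 0.0311 and 0.0386). The best covered genes, SEPTIN9 and ACTN4, had 0.022 and 0.025, values whose sign turned with library totals and with no filter (edgeR adjusted p = 0.976 and 0.963). In RNA-seq 4 of 65 passed downward (6.15%) and 0 upward: KIF20A with a ratio of 0.231, PLK1 with 0.241, CDCA8 with 0.377 and KIF14 with 0.379. The list also holds septins, myosins and abscission genes, and 61 of the 65 passed in neither direction.

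Of 22 tested genes of chromosome condensation 1 fell in iCLIP, SGO2, a protector of centromere cohesion, with -1.74 (edgeR adjusted p = 0.0178), 0 rose and 21 did not pass, with a median of -0.18. NCAPG2, a condensin subunit, and the cohesin gene STAG1 had the most counts and 0.07 and -0.30 (edgeR adjusted p = 0.905 and 0.307). In RNA-seq CDCA2, a chromosome-bound phosphatase regulator, was the only 1 of 31 past the size rule, with a ratio of 0.423. Over the lists 11 genes fell in iCLIP, and CDCA8 and AURKA kept the call with each library left out in turn, while the other 9 lost it in at least 1 case. KIF14 and SGO2, for example, had edgeR adjusted p values of 0.223 and 0.251 without irradiated library 2, and SGO2 then had a log2 fold change of -0.97, against -2.58 without irradiated library 1.

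**Figure D5:**
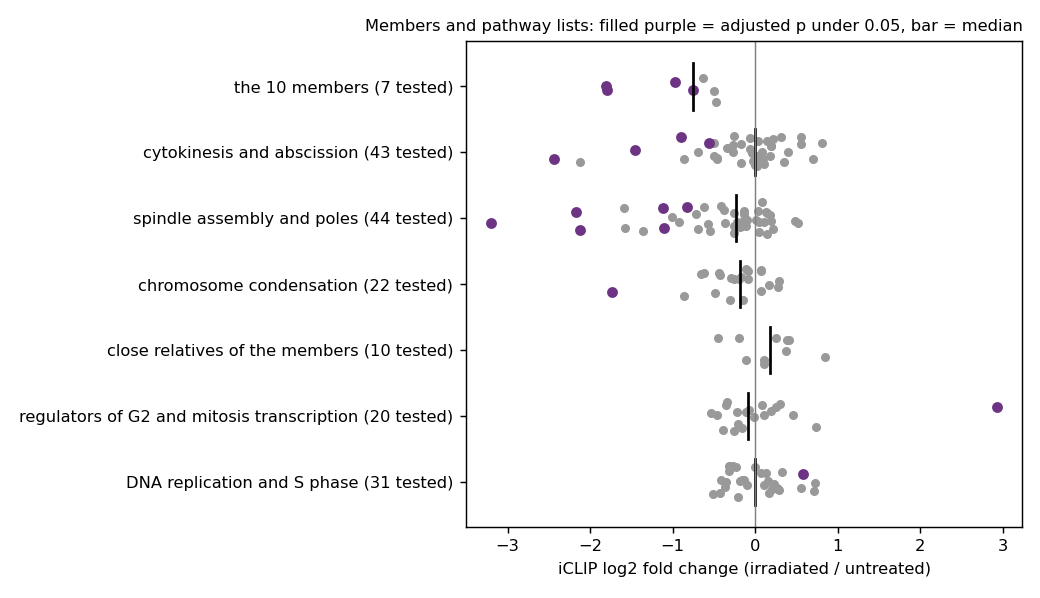
iCLIP log2 fold change (irradiated over untreated) of the tested genes among the 10 members and in 6 lists, 1 point per gene with random vertical spread, purple where the edgeR adjusted p was under 0.05, black bars the medians. The members' median (-0.76) lies left of that of spindle assembly (-0.23) and of cytokinesis (-0.00473), and the far right point is CDKN1A.

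Among 2710 other genes with at least 200 iCLIP and 100 RNA-seq counts, the 5 closest to the median tested member (iCLIP -0.76, RNA-seq -0.88, Euclidean distance over these 2 log2 changes) were ALPK1, ABCG1, LINC00861, ARHGAP28 and TLE3. ARHGAP28 had -0.85 in iCLIP (edgeR adjusted p = 0.0218) and -0.87 in RNA-seq. ABCG1, a cholesterol transporter gene, had -0.84 (edgeR adjusted p = 0.0364) and -0.85. LINC00861 had -0.71 (edgeR adjusted p = 0.00324) and -0.81, ALPK1 -0.77 (0.0650) and -0.82, and TLE3 -0.64 (0.142) and -0.87. With 1 library left out ABCG1 lost its call in 3 cases, ARHGAP28 in 2 and LINC00861 in 1, TLE3 gained one without irradiated library 1 (edgeR adjusted p = 0.0491), and ALPK1 gained one with library totals (0.0455).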

How the data were processed

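Per the file headers, the authors deposited cDNA counts for each gene, which are unscaled whole numbers, and beside them the percent of the library's cDNA, whose sum includes intergenic cDNA. Genome build hg38 and, for RNA-seq, kallisto 0.44.0 are named in the submitters' processing notes. Aligner, duplicate removal, annotation release and strand setting were not given in the sources used here. The intergenic line (30.6% to 31.3% of iCLIP and 44.4% of RNA-seq counts) was left out of library sizes and tests.

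iCLIP libraries were compared with edgeR 4.0.16 in R 4.3.3 (TMM, filterByExpr, quasi-likelihood F test, Benjamini-Hochberg at 0.05, two-sided). The code was run on simulated counts with the same low dispersion for all genes, which cannot give the error rate in these libraries. SE is the absolute log2 fold change over the square root of F. RNA-seq ratios carry exact conditional 95% intervals and shares exact Clopper-Pearson ones, which cover counting error only. DESeq2 1.42.0, other scalings and filters, thinning and left-out libraries were the alternatives. Replicate pairs differed by more than counting error alone, with chi-square values per degree of freedom of 2.12 in irradiated and 1.51 in untreated cells. These values cannot tell separate cultures from technical repeats. Python 3.11.15, scipy 1.17.1 and matplotlib 3.10.9 were used. Positions and promoters are RefSeq's, GRCh38.p14.

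Members and lists were chosen with earlier results of these data known. From each list the genes called in iCLIP (6 at most), 4 past the RNA-seq size rule and the 2 with most iCLIP counts were named. NUSAP1 and GAS2L2 of the lists were not found by symbol.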

Additional observations from a re-analysis of the deposited data

How the results depend on the processing

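Leaving out 1 library in turn gave 186 (without untreated 1) to 421 (without irradiated 1) calls over all iCLIP genes (323 with all libraries), 2 to 4 calls among the 10 genes (4) and 6 (without untreated 2) to 14 in the wider lists (13). DESeq2 gave 121, 0 and 1 calls, and thinning to equal depth 152, 1 and 1; the causes were not tested. The labels share replicate numbers between the groups but do not say what a number stands for. With a replicate block the calls were 190, 2 (ASPM and GAS2L3) and 8. Same-numbered libraries deviated in opposite directions (Pearson -0.20 over 5340 genes), and a crossed replicate block, chosen after seeing the data, gave 669 calls in all, 5 among the 10 genes and 23 in the lists. Scaled by library totals 58.2% of the calls were rises, against 69.3% with TMM, and the median of all genes moved to -0.06, so ANLN's call there is relative to that shift. Across 11 alternatives all 77 log2 fold changes of the 7 tested genes stayed negative. In RNA-seq a minimum of 500 counts left 98 genes of 193, since fewer genes were tested, and other scalings changed no member's ratio beyond its interval. Counting intergenic reads raised the iCLIP to RNA-seq ratios 1.24-fold to 1.25-fold. Without the prior count they were 0.734 to 0.997 of their main values. Values near 0 changed sign, none of them called: SEPTIN9 to -0.047 (library totals), -0.019 (no filter), -0.16 (without untreated 1) and from -0.22 to 0.25 with any 1 library left out, and ACTN4 to -0.042 (library totals), -0.0083 (no filter), -0.069 (without untreated 2) and from -0.074 to 0.11 with any 1 left out. Likewise NCAPG2 gave -0.17 to 0.23, CHN1 -0.66 to 0.041 and RRM2 -0.024 to 0.23 with 1 left out, and ROCK2 -0.094 when thinned. Depth limits PRC1 and HMMR most, with 3 summed iCLIP counts each in irradiated cells.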

Other observations

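Of 20 tested regulators of G2 and mitosis transcription (among them DREAM, MuvB, E2F and NF-Y subunits, MYBL2, FOXM1 and CDKN1A), 1 rose in iCLIP, 0 fell and 19 did not pass, with a median log2 fold change of -0.09. Of all 9230 tested genes 2.43% rose in iCLIP and 1.07% fell. In RNA-seq 0.863% of 12977 genes passed the size rule upward and 0.624% downward. The riser was CDKN1A, the gene of the cyclin-dependent kinase inhibitor p21, with 99 and 173 counts in irradiated libraries against 21 and 34 in untreated ones, or 2.93 on the log2 scale (edgeR adjusted p = 9.6e-08). In RNA-seq CDKN1A was also the only 1 of 28 past the size rule, with a ratio of 3.43 from 8111 counts in irradiated and 2335 in untreated cells, and the best covered of the rest, LIN52 and E2F3, had iCLIP log2 fold changes of -0.34 and 0.30 (edgeR adjusted p = 0.368 and 0.438). Of 31 tested genes of DNA replication and S phase, 1 rose, the DNA ligase gene LIG1, with 0.58 (edgeR adjusted p = 0.0241), 0 fell and 30 did not pass, with a median of 0.00159. A rise of 1 in 31 is near the 2.43% of all tested genes that rose. LIG1 lost the call without untreated library 1 (edgeR adjusted p = 0.154) or untreated library 2 (0.286), and RRM2, a ribonucleotide reductase gene, had 0.10 (0.772). In RNA-seq 0 of 47 genes of this list passed the size rule.

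Of 10 tested relatives of the 10 genes, 0 rose and 0 fell in edgeR, with a median of 0.18. ROCK2 and CDC42BPA, kinases related to CIT, had 0.10 and -0.46 (edgeR adjusted p = 0.852 and 0.178). CHN1, a Rac GTPase activating protein gene related to RACGAP1, had an RNA-seq ratio of 0.483 (0.349 to 0.660) from 61 counts in irradiated and 125 in untreated cells, and an iCLIP log2 fold change of -0.20 (edgeR adjusted p = 0.872). For the relatives the count at an unadjusted edgeR p under 0.05 was 2, 1 lower and 1 higher. Of all 9230 tested genes 1340 had such a p, so this count is not read as a result. DESeq2 called 0 of the relatives.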
